A study of Cynara cardunculus with 36 samples.

Results

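The comparison set Opal (OP) against Green Globe Improved (GGI) at day 0 of cold storage, with 3 libraries a side, or 6 of the 36 libraries of the series. Both are cultivars of globe artichoke (Cynara cardunculus var. scolymus), and RNA was sequenced from the heart, the inner edible part of the head. Members were taken by their titles, which name the cultivar, the sampling day and the replicate. All plants of both groups were field-grown with gibberellic acid (GA), a hormone given to bring flowering forward, and the harvested mature heads had already been held cold before the day 0 sampling. Day 0 is therefore the start of the storage experiment and not the moment of harvest. The labels carry no plant age, and they call the replicates biological without saying how many heads went into each. The other cultivars, Imperial Star (IS) and Green Queen (GQ), and the samplings at day 7 and day 14 had 3 libraries per cultivar and day as well. They are used here to place the difference between OP and GGI.

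A harvested artichoke head is an immature flower head that goes on respiring after it is cut. Its tissue is rich in caffeoylquinic acids and other phenolics, and cut or ageing artichoke browns when polyphenol oxidases act on them. The stated aim of the series was to find genes behind the fast ageing and quality loss of the produce, and a comparison of cultivars at day 0 shows how far their hearts differed before that storage began.

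The deposited files identify gene models by ID only. Of 28632 IDs, 0 matched the RefSeq gene table of this species, so no gene name, product, protein or promoter can be attached to any of them. Tissue markers could not be checked for the same reason, and the difference is described by counts, levels, persistence and 4 gene models named by ID.

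Reads in gene models numbered 34.6 to 45.5 M (the M of CPM, counts per M reads) in the 6 libraries, and 21925 to 22453 gene models had at least 1 read. Between 10.3% and 13.7% of the reads listed fell outside gene models. OP replicate 1 was the highest, and the other libraries of the 6 had at most 11.4%. The 3 OP libraries carried library numbers 1 to 3 and the 3 GGI libraries 7 to 9, so the order of the libraries and the cultivar cannot be told apart. Of the later libraries, 6 stood apart more clearly, and they touch the later values below. Reads outside gene models reached 71.0% in OP day 7 replicate 1 and 33.5% in GGI day 7 replicate 2, against 9.39% to 16.0% in the other OP and GGI libraries of those days. GQ day 7 replicates 2 and 3 were also high, and the libraries labelled GGI day 14 replicate 1 and GQ day 14 replicate 1 went against their labels in the cultivar states described below. Leaving out the GGI library of day 14 on that ground favours agreement with day 0. Day 14 values without the libraries that stand apart are therefore no independent check.

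Hearts of the 2 cultivars differed more from each other than replicates did within either cultivar. The root mean square difference in log2(CPM + 1) over the gene models tested was 0.880 on average between an OP and a GGI library, 0.591 between OP libraries and 0.523 between GGI libraries. The smallest distance between the cultivars was 0.780, for OP replicate 2 and GGI replicate 2, and the largest within a cultivar was 0.675, for OP replicates 2 and 3. The labelled split gave the highest excess of between over within distance of the 10 possible splits (exact one-sided permutation test, p = 0.1, the smallest that 3 against 3 allows). The median SD of log2(CPM + 1) was 0.229 in OP and 0.190 in GGI. Distances within the cultivars overlapped, at 0.483 to 0.675 in OP and 0.463 to 0.629 in GGI, and a difference in spread was not tested.

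Among all 12 day 0 libraries the first principal component of log2 CPM held 45.1% of the variance and placed OP and GGI on opposite sides. OP lay at -52.8, -49.5 and -102 and GGI at 37.3, 28.3 and 57.6. GQ shared the OP side, at -58.0 to -119, and IS lay beyond GGI, at 98.4 to 125. The second component, with 18.3%, separated GGI from the rest. GGI lay at -93.3, -81.0 and -92.4 there, while the other cultivars lay between 8.34 and 60.4. OP and GGI thus did not overlap on either axis, while the ranges of OP and GQ overlapped on both. The third component held 10.1% and set OP, at 26.0 to 77.1, apart from GQ, at -37.0 to -65.2.

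**Figure D1:**
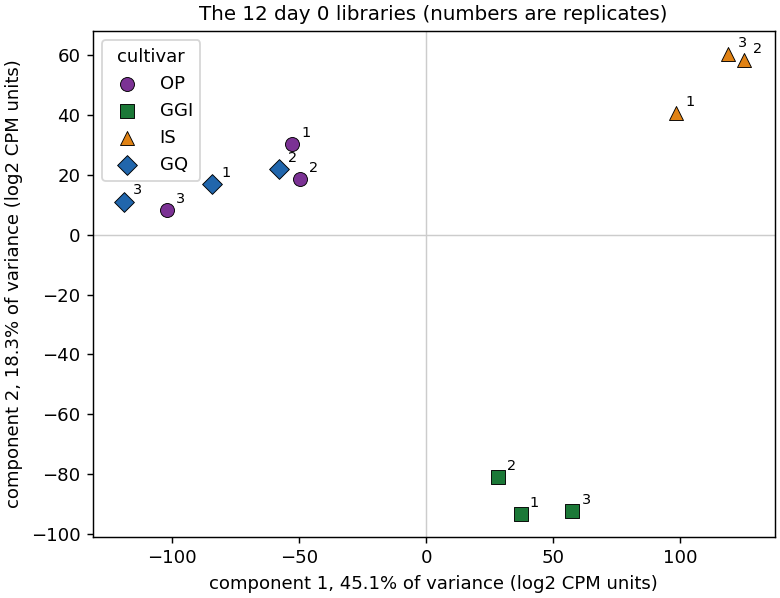
Principal components 1 and 2 of log2 CPM (prior count 2) for the 12 day 0 libraries, 3 per cultivar; each point is a library and its number the replicate. The OP libraries lie between -102 and -49.5 on component 1 and the GGI libraries between 28.3 and 57.6, and GGI alone lies below 0 on component 2.

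The test across gene models asked which of them had a different level in OP and GGI hearts at day 0. Of 20628 gene models tested, 4464 were called, or 21.6%, at a Benjamini-Hochberg adjusted p under 0.05 (edgeR quasi-likelihood test on the 12 day 0 libraries). Levels were higher in OP for 2294 of them, 11.1% of those tested, and higher in GGI for 2170, or 10.5%. This balance has no firm direction, since size factors in place of TMM gave 2232 higher in OP and 2236 higher in GGI. The groups did not overlap, meaning that every OP value lay on one side of every GGI value, for 8668 gene models, 42.0% of those tested, and for 98.1% of those called. The count rests on the depth of replication: leaving out 1 library gave 2413 to 4010 calls, with moves of over 1.5 times without OP replicate 1, OP replicate 3, GGI replicate 1 or GGI replicate 3. A fit that also took in the day 7 and day 14 libraries called only 607, of which 595 were among the 4464.

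Differences were mostly modest, with a tail of very large ones on both sides. The median fitted difference of a called gene model was 1.89-fold among those higher in OP and 2.25-fold among those higher in GGI, against 1.35-fold in either direction over all gene models tested. More than 2-fold differences numbered 1029 higher in OP and 1258 higher in GGI. Over 16-fold lay 193 higher in OP and 214 higher in GGI, with gene models that had 0 reads in one cultivar set to their lower bound, from a floor of 3 counts over the 3 libraries of that cultivar. Those at 0 reads numbered 75 with no read in GGI and 84 with no read in OP. With these at their bounds the medians stayed at 1.89-fold and 2.25-fold.

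The share called was lowest among the scarcest gene models, whose called differences were also the largest. Of 2417 gene models with a mean under 1 CPM, 15.5% were called, and of 553 with a mean over 256 CPM, 23.9%. The median absolute log2 difference of the called ones was 3.96 under 1 CPM, 1.15 from 4 to 16 CPM and 0.98 over 256 CPM. Standard errors ran the same way, from a median of 0.77 under 1 CPM to 0.18 between 16 and 256 CPM, so small differences in low gene models could not be called. Above 256 CPM the calls leaned to GGI, with 84 higher in GGI and 48 higher in OP. Gene models called higher in GGI took 17.0% to 18.3% of the reads of the GGI libraries and 8.46% to 9.63% of the reads of the OP libraries. Those called higher in OP took 13.1% to 14.8% of the reads in OP and 6.49% to 6.97% in GGI. Among the 100 most abundant gene models, which held 15.5% to 20.2% of the reads, 18 were called higher in GGI and 11 higher in OP.

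**Figure D2:**
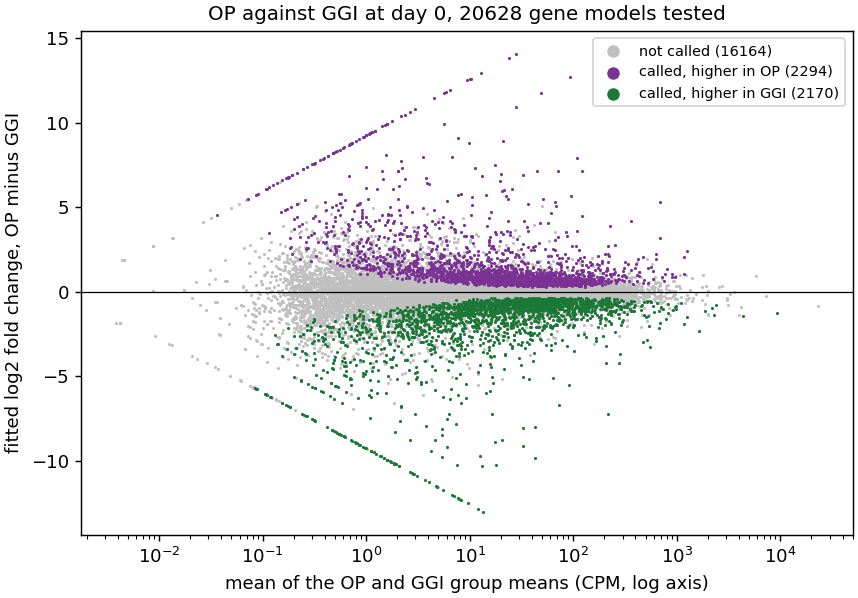
Fitted log2 fold change, OP minus GGI, at day 0 against the mean of both group means in CPM (log axis) for the 20628 gene models tested; coloured points passed the test, 2294 higher in OP and 2170 higher in GGI. The straight outer edges are gene models with 0 reads in every library of one cultivar, whose fitted value depends on the prior count.

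Abundant transcripts were among the called differences. V2_06g002470.1.01 had the largest difference in mean CPM among the candidates higher in OP. Its level at day 0 was 1625, 1867 and 2798 CPM in the OP libraries and 461, 344 and 392 CPM in the GGI libraries. Every OP library lay far above every GGI library. The means were 2097 ± 620 and 399 ± 58.9 CPM (SD, n = 3 each), which is 2.39 ± 0.34 (SE) as a log2 fold change, with an adjusted p of 0.00115 (edgeR). GQ hearts stood in the OP range, at 2219 ± 362 CPM, and all IS hearts below GGI, at 109 ± 52.0 CPM (SD, n = 3 each).

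V2_14g009720.1.01 had the largest difference in mean CPM among the candidates higher in GGI. Its level was 16350, 10550 and 11800 CPM in GGI and 5829, 4879 and 5840 CPM in OP. The groups did not overlap, and the gap between the lowest GGI and the highest OP library was wider than the range within OP but narrower than that within GGI. The means were 12900 ± 3049 and 5516 ± 552 CPM (SD, n = 3 each), which is -1.23 ± 0.32 (SE) as a log2 fold change, with an adjusted p of 0.0215 (edgeR). This call was lost without any single OP library or without GGI replicate 1 (edgeR, adjusted p = 0.0519 to 0.0812) and in the fit of all 36 libraries (adjusted p = 0.689). Over all alternatives the adjusted p ran from 0.000569 to 0.689 and the log2 fold change from -1.37 to -1.02. In IS the level was 13810 ± 5589 CPM and in GQ 1797 ± 287 CPM (SD, n = 3 each).

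Other gene models were read in one cultivar and silent in the other. V2_06g006770.1.01 had the largest fitted difference among the candidates higher in OP. It stood at 74.2, 21.5 and 71.1 CPM in the OP libraries, with 6213 reads in all, and had 0 reads in each GGI library. A count of 0 over the 3 GGI libraries allows up to 0.0251 CPM, so the mean level in OP was at least 2210-fold higher (edgeR, adjusted p = 0.000659). GQ carried it as well, unevenly, at 12.3, 5.88 and 38.1 CPM, and IS had 13 reads over its 3 libraries. V2_02g012730.1.01 was the reverse case. It stood at 35.0, 20.6 and 25.2 CPM in GGI, with 3176 reads, and had 0 reads in each OP library, which allows up to 0.0270 CPM. Its mean level in GGI was at least 998-fold higher (edgeR, adjusted p = 2.79e-05). IS carried it at 25.5 ± 11.2 CPM and GQ at 10.4 ± 2.47 CPM (SD, n = 3 each), so that of the 4 cultivars only OP had no read of it at day 0. Intervals and floors of this kind cover counting error only.

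By a fixed pair of thresholds, with every library of one cultivar over 1 CPM and every library of the other under 0.1 CPM, 52 gene models were on in OP and off in GGI, and 59 were on in GGI and off in OP. Together they made up 0.388% of the 28632 gene models. Of the 52, 34 had no read at all in GGI, and of the 59, 40 had no read in OP. Most had modest levels where they were on, with a median of the group means of 3.66 CPM in OP and 3.59 CPM in GGI, and a highest of 191 CPM in OP and 25.7 CPM in GGI. Stricter thresholds of 2 and 0.05 CPM left 45 gene models, 19 on in OP and 26 on in GGI. The choice of thresholds used these libraries, so the states at day 0 are a description.

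The states were then read in libraries that had no part in choosing them, with over 0.3 CPM taken as on. In OP at day 14, 98, 102 and 104 of the 111 gene models were in the OP state, and at day 7, 105 and 109 in replicates 2 and 3. OP day 7 replicate 1, with 71.0% of its reads outside gene models, had 78. GGI libraries had 20 to 23 in the OP state at day 7, and 21 and 26 at day 14 in replicates 3 and 2. The library labelled GGI day 14 replicate 1 had 83, far above the other GGI libraries, and GQ day 14 replicates 2 and 3 had 79 each. The library labelled GQ day 14 replicate 1 had 25. Apart from OP day 7 replicate 1 and the library labelled GGI day 14 replicate 1, the OP libraries of the later days had 98 to 109 in the OP state and the GGI libraries 20 to 26. With both included, the ranges were 78 to 109 and 20 to 83. The GGI library is set apart for these same states, so the narrower ranges are a description. GGI moved further from its day 0 state than OP did, and the part that the thresholds play in this was not tested.

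**Figure D3:**
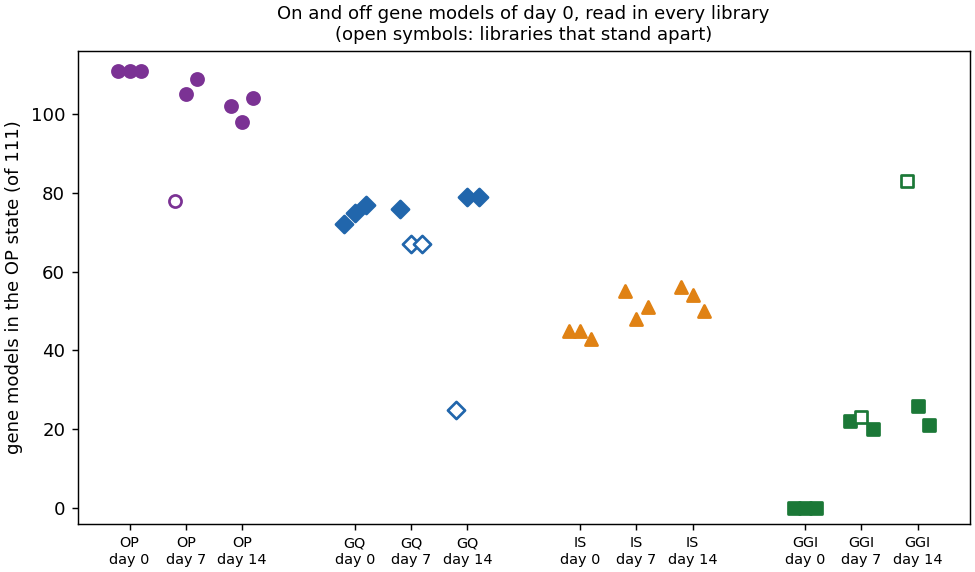
Number of the 111 on and off gene models found in the OP state in each of the 36 libraries, by cultivar and day; each point is a library and open symbols are the libraries that stand apart. The states of day 0 were chosen at 111 in OP and 0 in GGI, and at the later days OP lies near the top and GGI near the bottom except for OP day 7 replicate 1, at 78, and the library labelled GGI day 14 replicate 1, at 83.

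The other cultivars carried a mixture of these states. At day 0 GQ had 72 to 77 of the 111 in the OP state and IS 43 to 45. Of the 52 gene models on in OP, GQ libraries had 36 to 39 on and IS libraries 16 or 17. Of the 59 on in GGI, GQ libraries had 20 to 26 on and IS libraries 30 to 33. On the OP set the libraries of GQ and IS did not overlap, and the same was true of the GGI set, where GQ varied most between replicates.

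Over all called gene models GQ also resembled OP. By mean log2(CPM + 0.5), GQ lay nearer to OP than to GGI for 86.6% of those higher in OP and 83.2% of those higher in GGI, against 68.8% of all gene models tested. IS lay nearer to GGI for 61.4% and 63.9%, against 56.3% of all tested. The commonest arrangement was GQ nearer to OP with IS nearer to GGI, in 2416 of the 4464 called gene models, or 54.1%, against 42.2% of all tested. Both IS and GQ lay nearer to OP in 1376, or 30.8%, near the 26.6% of all tested. Both lay nearer to GGI in 380, or 8.51%, against 14.1%, and IS nearer to OP with GQ nearer to GGI was found in 292, or 6.54%, against 17.1%. No test was made of these positions, which are a description of the 12 libraries.

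Called gene models were spread over the whole numbering of the IDs. Each ID carries a number from 1 to 17 before its serial number, apart from a small rest, and the sources used here do not say what the number stands for. The share called lay between 18.3% in number 6 and 24.8% in number 2, against 21.6% over all. Among 125 tested gene models with none of these numbers it was 30.4%, or 38 gene models. In ID order, 1161 of the called gene models, or 26.0%, stood next to another called gene model of the same direction among those tested. With 11.1% of all tested gene models called higher in OP and 10.5% higher in GGI, many such neighbours arise without any grouping. The share to be had from the call rate was not worked out, so no conclusion on grouping, for or against, is drawn from the 26.0%. The longest run held 6 gene models higher in OP under number 15. Of the on and off gene models, 20 of 2696 gene models fell under number 2 and 0 of 1655 under number 17, counts too small to compare.

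Whether the day 0 differences lasted was read from the day 7 and day 14 libraries, each day fitted to its own 12 libraries. At day 7, 172 of 20768 gene models were called between OP and GGI, or 0.828%, and at day 14, 992 of 20154, or 4.92%. The spread at these days was wider, with a biological coefficient of variation of 0.65 at day 7 and 0.458 at day 14 against 0.345 at day 0. On simulated counts with the spread of each day, the test recovered 71 of 100 4-fold changes at day 0, 0 of 100 at day 7 and 50 of 100 at day 14, so the counts of calls are not comparable between days. The simulation changed only 100 gene models by 2-fold and 100 by 4-fold. Far more were called in the day 0 data, so these shares are not the recovery in the data. Of the day 0 calls, 80 were called in the same direction at day 7 and 16 in the opposite one, and at day 14, 244 and 50. At day 7 that was 1.83% and 0.366% of those tested, against 0.624% and 0.218% of all gene models tested on both days. At day 14 it was 5.74% and 1.18%, against 3.39% and 1.54%. Without the libraries that stand apart, 1.52% of all gene models were called at day 7 and 3.85% at day 14, and the day 0 calls among them numbered 165 in the same and 19 in the opposite direction at day 7, and 327 and 29 at day 14. As shares these were 3.73% and 0.429% at day 7, against 1.27% and 0.313% of all tested on both days. At day 14 they were 7.63% and 0.676%, against 3.1% and 0.715%, though the library left out from GGI there was set apart for its day 0 states. Calls in the same direction at all 3 days numbered 30, of which 25 were higher in GGI. The libraries that stand apart are part of this count, which is not given without them, so its lean to GGI is not firm.

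The sign of the difference, which needs no call at the later day, gave a different picture at each day. At day 7, 46.5% of the 4374 day 0 calls that could be tested kept the sign of their difference, against 49.1% of all gene models tested on both days. At day 14 it was 61.4% of 4249, against 55.1%. Without the libraries that stand apart the shares were 44.9% against 47.9% at day 7, and 65.2% against 57.6% at day 14. By direction, 41.3% of those higher in OP and 52.2% of those higher in GGI kept their sign at day 7, and 44.2% and 45.7% without the libraries that stand apart. As a body, the gene models that set OP and GGI apart at day 0 therefore showed no excess of the same sign a week later.

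Among gene models tested at the later day, the share differed with the size of the day 0 difference. At day 7 the same sign was found in 36.0% of the 2177 called gene models that differed by under 2-fold and in 46.2% of those between 2 and 4-fold. It was found in 65.4% between 4 and 16-fold and in 79.0% of those over 16-fold. All shares are of the gene models tested at the later day. Of the 407 over 16-fold, 348 were tested at day 7 and 306 at day 14, while all 2177 under 2-fold were tested on both days. At day 14 these shares were 58.4%, 59.6%, 66.1% and 80.7%. Without the libraries that stand apart their range was 35.7% to 77.4% at day 7, and 61.8% to 84.7% at day 14. Small differences thus more often than not had the other sign at day 7. Large ones that were still tested mostly kept theirs on both days. A gene model low in both cultivars at the later day can drop out of the test, and more of the large ones did. Over all day 0 calls, tested later or not, 275 of 407 over 16-fold and 784 of 2177 under 2-fold had the same sign at day 7. At day 14 these were 247 of 407 and 1271 of 2177, so the day 14 shares cannot show that large differences lasted more often. For the on and off gene models the day 7 sign was kept by 44 of the 46 on in OP and 49 of the 54 on in GGI that were tested there, and the day 14 sign by 42 of 47 and 46 of 47.

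**Figure D4:**
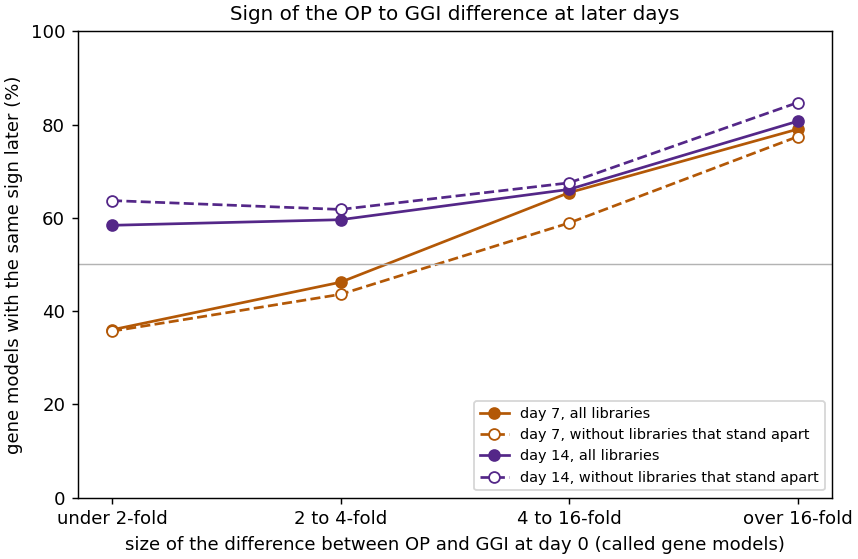
Share of the gene models called at day 0 and tested at the later day whose difference between OP and GGI had the same sign at day 7 or day 14, by the size of the day 0 difference. Solid lines use all libraries of the later day and dashed lines leave out the libraries that stand apart. With all libraries the share climbs from 36.0% to 79.0% at day 7, and at day 14 the ends are 58.4% and 80.7%. Gene models not tested at the later day are left out, and more of them had large day 0 differences.

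The arrangement of the other cultivars went with persistence too. Shares here are again of the gene models tested at the later day. Of the called gene models in which both IS and GQ lay nearer to GGI at day 0, 74.0% kept their sign at day 7 and 76.3% at day 14. With GQ nearer to OP and IS nearer to GGI, 43.5% did at day 7 and 58.3% at day 14. With both nearer to OP, 41.3% did at day 7 and 60.6% at day 14. With IS nearer to OP and GQ nearer to GGI, 61.6% did at day 7 and 71.0% at day 14. Each of these shares stayed on its side of 50% without the libraries that stand apart.

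The change of the difference was tested as an interaction in a fit of all 36 libraries. Between day 0 and day 7 the difference between OP and GGI changed for 1406 of 21900 gene models, or 6.42%, and between day 0 and day 14 for 144, or 0.658%. Of the 4464 gene models called at day 0, 729 were among the first and 104 among the second. These gene models were picked for their day 0 difference, which is also part of the change tested. Picking them so favours a call of the change. How much of the 729 and 104 comes from this was not tested, so no conclusion is drawn from the overlap. Without the 6 libraries that stand apart the counts over all gene models were 3005 and 1222.

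The named gene models covered both kinds. V2_06g002470.1.01 turned around at day 7, with 214, 442 and 616 CPM in OP and 2506, 843 and 1968 CPM in GGI, so that every GGI library then lay above every OP library. The day 7 difference itself did not pass the test (log2 fold change -2.06 ± 0.83 SE; edgeR, adjusted p = 0.257), but the change of the difference from day 0 did, at -4.47 ± 0.84 on the log2 scale (SE; edgeR, adjusted p = 0.00261). The gene model was picked for its day 0 difference, which is also part of that change. Picking it so favours a change of this sign. At day 14 the OP libraries were above again, at 1347, 1541 and 1140 CPM against 343, 534 and 809 CPM in GGI (edgeR, adjusted p = 0.0563). Leaving out the libraries that stand apart gave adjusted p of 0.299 at day 7 and 0.118 at day 14 (edgeR).

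V2_14g009720.1.01 also changed sides at day 7. Its level was then 14430, 4192 and 4847 CPM in OP and 210, 501 and 1010 CPM in GGI, with the highest OP value in the library that is high in reads outside gene models. Neither the day 7 difference (edgeR, adjusted p = 0.269) nor its change from day 0 (adjusted p = 0.0854) passed the test. At day 14 the cultivars overlapped fully, at 557 to 3670 CPM in OP and 328 to 3365 CPM in GGI (edgeR, adjusted p = 0.999).

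V2_02g012730.1.01, in contrast, remained all but unread in OP. It had 0 reads in the 3 OP libraries of day 7 and 1 read in those of day 14, while GGI held 4.04, 2.86 and 5.22 CPM at day 7 and 9.53, 18.1 and 5.34 CPM at day 14. The difference was called at day 7 (edgeR, adjusted p = 0.00593) and at day 14 (adjusted p = 0.000771), and also without the libraries that stand apart (adjusted p = 0.0200 and 0.000974). V2_06g006770.1.01 stayed higher in OP at day 7, at 17.0, 63.4 and 17.4 CPM against 0.0354, 0 and 0.324 CPM in GGI (edgeR, adjusted p = 0.0193). That call was lost without the libraries that stand apart (adjusted p = 0.0602), though the fitted log2 fold change was then 7.79 against 8.02 with all libraries. At day 14 its OP levels were 1.26, 33.4 and 0.939 CPM. GGI replicates 2 and 3 had 0 reads, and the library labelled GGI replicate 1 had 0.956 CPM and overlapped with OP (edgeR, adjusted p = 0.186).

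**Figure D5:**
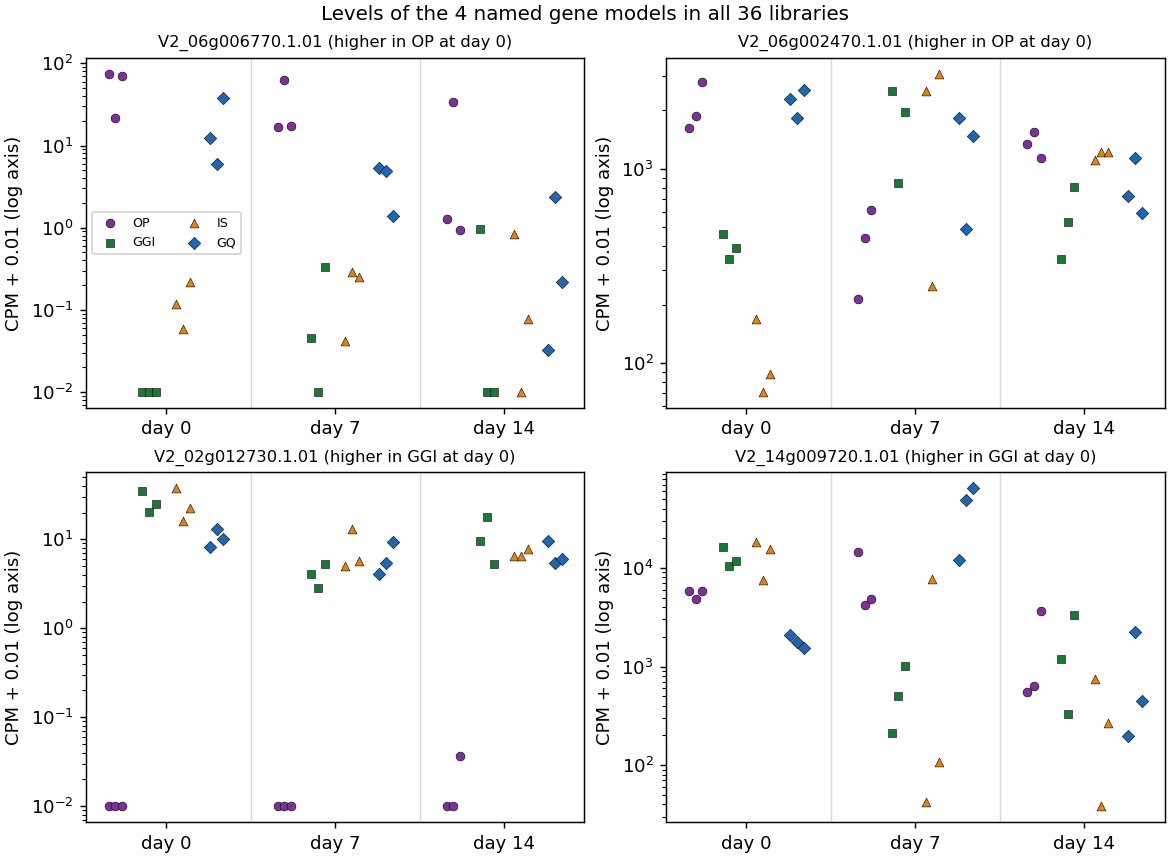
CPM plus 0.01 (log axis) of the 4 named gene models in all 36 libraries, by day and cultivar; each point is a library, and points at 0.01 have 0 reads. V2_06g002470.1.01 is higher in OP at day 0, higher in GGI at day 7 and higher in OP again at day 14, while V2_02g012730.1.01 has at most 1 read in any OP library.

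The day 0 difference between OP and GGI was also set beside the storage response of IS, whose libraries belong to neither group. This was added after the values above were seen. Of the 2294 gene models higher in OP at day 0, 355 rose in IS from day 0 to day 7 and 19 fell (edgeR, adjusted p under 0.05 in the fit of all 36 libraries). That is 15.5% and 0.828%, against 8.31% rising and 4.42% falling among all gene models tested. Of the 2170 higher in GGI, 50 rose and 212 fell, or 2.30% and 9.77%. From day 0 to day 14, 622 of those higher in OP rose in IS and 98 fell. Of those higher in GGI, 111 rose and 699 fell over the same time. The background at day 14 was 16.5% rising and 16.3% falling over the same gene models.

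The median change in IS was likewise positive for gene models higher in OP, at 0.30 on the log2 scale by day 7 and 0.38 by day 14. It was negative for those higher in GGI, at -0.48 and -0.73. Over all gene models of the day 0 test the medians were 0 and -0.04. Gene models higher in OP at day 0 were thus more often those that rose in stored IS hearts, and gene models higher in GGI those that fell. Without the 6 libraries that stand apart the counts by day 7 were 736 rising and 111 falling for those higher in OP, and 165 and 589 for those higher in GGI. The background was then 18.3% rising and 15.7% falling among all gene models of the day 0 test. By day 14 the counts were 953 and 266 for those higher in OP, and 214 and 1028 for those higher in GGI, against 26.2% and 28.0%. None of the libraries left out is an IS library, so this is no check of the IS libraries themselves. IS day 7 replicate 2 differed from its groupmates in V2_14g009720.1.01, at 7650 CPM against 42.5 and 106 CPM. In V2_06g002470.1.01 it had 250 CPM against 2515 and 3072 CPM. The part of this library in the day 7 counts was not tested. IS at day 0 lay on the GGI side of the first component, and the part of that position in these counts was not tested.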

How the data were processed

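The authors deposited 1 table per library, with whole-number counts of reads for 28632 gene models and 5 summary rows. Cutadapt and STAR are named, with no version, per the submitters' processing notes. The counting tool, build, annotation and strandedness are not stated there, so reads of near-identical or overlapping gene models may be split or dropped. Library sizes and tests leave out the summary rows, which held 15.4% to 19.5% of the reads listed in the 6 day 0 libraries.

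Groups came from the titles. No pair of the 6 libraries agreed within sampling noise (lowest chi-square per degree of freedom 57.6), so each counted as 1 replicate; p-values measure only the spread between libraries. Counts were analysed in R 4.3.3 with edgeR 4.0.16 and limma 3.58.1: filterByExpr (minimum count 10, total 15), TMM scaling, glmQLFit with robust estimation and glmQLFTest, with 1 mean per cultivar. Each day was fitted to its own 12 libraries, and interactions and IS changes to all 36. DESeq2 1.42.0 was an alternative. CPM and floors of 3 counts carry the TMM factors of their day, except for on and off states, which use library totals.

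In simulated counts for day 0 over 20628 gene models, 21 of 100 2-fold and 71 of 100 4-fold changes were recovered, with 3 calls of unchanged gene models among 95. No other gene model was changed, against 4464 calls in the data, and the adjusted p is stricter where few gene models differ. These shares are therefore not the recovery in the data.

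Named gene models were called at day 0, with no overlap and mean log2 CPM reaching 1 or more. Per direction they are the largest fitted difference and, among those read in all 6 libraries and at least 2-fold apart, the largest difference in mean CPM. The comparison and the rules were chosen with earlier results of these data known.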

Additional observations from a re-analysis of the deposited data

Results flagged for a closer look

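The difference between OP and GGI itself differed between days for 1406 gene models from day 0 to day 7 and for 144 from day 0 to day 14 (edgeR quasi-likelihood test of the interaction, adjusted p under 0.05). Among the named gene models, V2_06g002470.1.01 drew attention for the same reason. Its difference turned from higher in OP, in 3 of 3 libraries at day 0, to higher in GGI, in 3 of 3 at day 7 (edgeR, adjusted p = 0.00261). It was picked for its day 0 difference, which is part of this test, so the choice favours such a result. The day 7 difference alone did not pass (edgeR, adjusted p = 0.257).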

How the results depend on the processing

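The day 0 count of 4464 stayed within 1.5 times under size factors (4468), no filter (4113), DESeq2 (6257), the replicate block (3620) and the 6 libraries alone (3251), but was 607 with all 36 libraries in the fit; without 1 library it lay between 2413 and 4010. For V2_06g006770.1.01, V2_06g002470.1.01 and V2_02g012730.1.01 the call held under all 12 alternatives, with adjusted p of at most 0.0229. The on and off count of 111 was 45 at stricter thresholds and 119 to 159 without 1 library.

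Later counts depended strongly on the method, and the cause was not tested. At day 7, 172 calls became 1842 with DESeq2, 43 in the 6 libraries alone, 329 without the libraries that stand apart, 3086 with all 36 libraries and 38 to 183 without 1 library. At day 14, 992 became 3731 with DESeq2, 17 in the 6 libraries alone and 82 to 2857 without 1 library. The interaction count of 1406 at day 7 became 2833 with DESeq2, 3005 without the libraries that stand apart, 788 with the 12 libraries alone and 571 to 1607 without 1 library. At day 14, 144 became 961, 1222, 705 and 17 to 706. Single libraries of each OP and GGI group moved these later counts by over 1.5 times. Day 0 calls shared at day 7 (80) were 491 with DESeq2 and 165 without the libraries that stand apart, and those shared at day 14 (244) were 846 with DESeq2. In IS, leaving out the libraries that stand apart gave 736 rising and 589 falling by day 7, and 953 rising by day 14. None of those libraries is an IS library.

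Same-numbered OP and GGI libraries of day 0 deviated with r of 0.0227, -0.264 and -0.312, so the numbers do not pair them. The replicate block gave 49 calls at day 7 and 190 at day 14, and 28 and 64 shared calls.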
